A study of Mus musculus with 16 samples.

Results

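The 10 genes described here encode RNA-binding proteins that control alternative splicing during neuronal differentiation: Ptbp1, Ptbp2, Nova1, Nova2, Srrm4, Rbfox1, Rbfox2, Rbfox3, Elavl3 and Elavl4. They were chosen by name, and each stood on a single line of the day 5 and the day 7 expression table, out of 55471 lines in each table. All 10 passed the filter on low values and were tested in every comparison. The samples were neural stem cells (NSC) from C57BL/6 mouse cortices taken at E15-16, grown as monolayers with FGF2 and switched to differentiation medium with B27 on day 5 after seeding. All cells carried a lentiviral shRNA added before that switch, either a scramble sequence (scr shRNA) or a single sequence against the long noncoding RNA RUS (Gm20754), and polyA RNA was sequenced on day 5 and on day 7, with 4 libraries in each of the 4 groups and 16 in all. The cells came from pooled embryos of mixed sex and had been passaged in culture, so the cultures were mixtures. The design text calls the 4 libraries of a condition experiments, and the sample labels do not say whether each was a separate culture. The p-values measure the spread between these libraries, which would be technical if the cultures were shared.

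Splicing programmes change when a neural progenitor becomes a neuron. Ptbp1, abundant in progenitors and in most non-neuronal cells, binds pyrimidine-rich stretches and holds neuronal exons out of the mRNA; its paralog Ptbp2 is the form of young neurons, and the microRNA miR-124 and the loss of Ptbp1 are known to drive the exchange. Srrm4 promotes inclusion of neuronal microexons. The Nova proteins bind clusters of a short motif of CA between pyrimidines, the Rbfox proteins bind UGCAUG, and the neuronal Elavl (Hu) proteins bind U-rich and AU-rich RNA, where they act on splicing and on mRNA stability. The tables give gene levels and no exon inclusion, so the splicing that these proteins carry out was not measured here.

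Levels are given as scaled TPM, which are TPM (transcript abundance corrected for gene length, set to a fixed total in each library) divided by a factor for each library, and changes as log2 fold changes with their standard error (SE) on the log2(scaled TPM + 0.1) scale, which understates changes of low genes. A gene was called higher or lower at a limma adjusted p below 0.05, with adjustment over all genes tested. The deposited tables hold no counts per library, so the number of reads is unknown. As a guide to precision, the authors' mean of normalized counts over the 8 libraries of day 5 was 7917 for Ptbp1, 139.8 for Rbfox3 and 59.0 for Rbfox1, the least covered of the 10.

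The exon on which the link between Ptbp1 and Ptbp2 rests is shown because the gene totals below cannot tell its inclusion from its skipping. Exon 10 of the 14 exons of the protein-coding Ptbp2 transcripts Ptbp2-201 and Ptbp2-213 has 34 bases and lies at chr3:119724612-119724645 on the minus strand of GRCm38. Ptbp1 is known to keep it out of the mRNA, which shifts the reading frame. In the annotation it is present in 3 protein-coding transcripts and absent from the other transcripts that span it, which are 2 of the nonsense-mediated decay class and 1 with a retained intron. The sequence is all in lower case, with no part marked.
Ptbp2 exon 10: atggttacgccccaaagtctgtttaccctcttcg

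The promoters of the paralogs Nova1 and Nova2 and of Elavl3 and Elavl4 are shown because the members of each pair moved in opposite directions under RUS shRNA on day 7. Each window runs from 250 bases before to 50 bases after a transcription start in RefSeq, on the gene's strand of GRCm38.p6. Capitals mark the GC box GGGCGG, the E-box CAGCTG and the TATA box TATAAA, searched on both strands, with overlapping copies counted.
Nova1 (chr12:46818718-46819017, minus strand): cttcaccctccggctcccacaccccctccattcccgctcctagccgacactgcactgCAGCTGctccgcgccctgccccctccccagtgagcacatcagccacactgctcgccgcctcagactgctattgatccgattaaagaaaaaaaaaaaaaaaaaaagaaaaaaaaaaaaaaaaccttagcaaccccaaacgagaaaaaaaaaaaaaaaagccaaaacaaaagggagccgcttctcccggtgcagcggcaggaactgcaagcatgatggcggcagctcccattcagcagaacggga
Nova2 (chr7:18925638-18925937, plus strand): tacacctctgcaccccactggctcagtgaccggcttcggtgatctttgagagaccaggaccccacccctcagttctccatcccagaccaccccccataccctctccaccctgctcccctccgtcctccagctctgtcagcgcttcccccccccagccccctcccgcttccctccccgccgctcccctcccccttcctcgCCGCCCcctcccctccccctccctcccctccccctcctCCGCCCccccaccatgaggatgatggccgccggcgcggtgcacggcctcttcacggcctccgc
Elavl3 (chr9:22051974-22052273, minus strand): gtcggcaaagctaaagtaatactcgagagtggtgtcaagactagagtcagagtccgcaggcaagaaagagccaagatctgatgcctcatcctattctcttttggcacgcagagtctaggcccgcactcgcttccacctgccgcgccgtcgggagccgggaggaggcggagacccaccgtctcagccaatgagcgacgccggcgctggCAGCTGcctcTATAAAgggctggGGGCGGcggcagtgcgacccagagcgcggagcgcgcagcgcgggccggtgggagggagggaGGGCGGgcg
Elavl4, first of 4 starts (chr4:110351862-110352161, minus strand): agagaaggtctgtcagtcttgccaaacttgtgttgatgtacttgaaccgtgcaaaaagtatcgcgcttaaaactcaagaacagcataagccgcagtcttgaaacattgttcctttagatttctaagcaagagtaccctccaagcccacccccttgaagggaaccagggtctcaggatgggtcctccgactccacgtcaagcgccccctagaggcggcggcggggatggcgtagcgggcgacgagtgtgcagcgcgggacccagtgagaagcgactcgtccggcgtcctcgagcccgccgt
Nova2 held 2 GC boxes and Nova1 held none, while Nova1 held 1 E-box. Elavl3 held 2 GC boxes, 1 E-box and 1 TATA box, and this Elavl4 window held no match to any of the 3. Of the other Elavl4 windows, the second and the third, which overlap, held 1 E-box each, and the fourth held no match. Of the 32851 promoter windows of this length, 35.7% held a GC box, 16.3% the E-box and 13.6% the TATA box. Windows were found for 9 of the 10 genes.

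**Figure D1:**
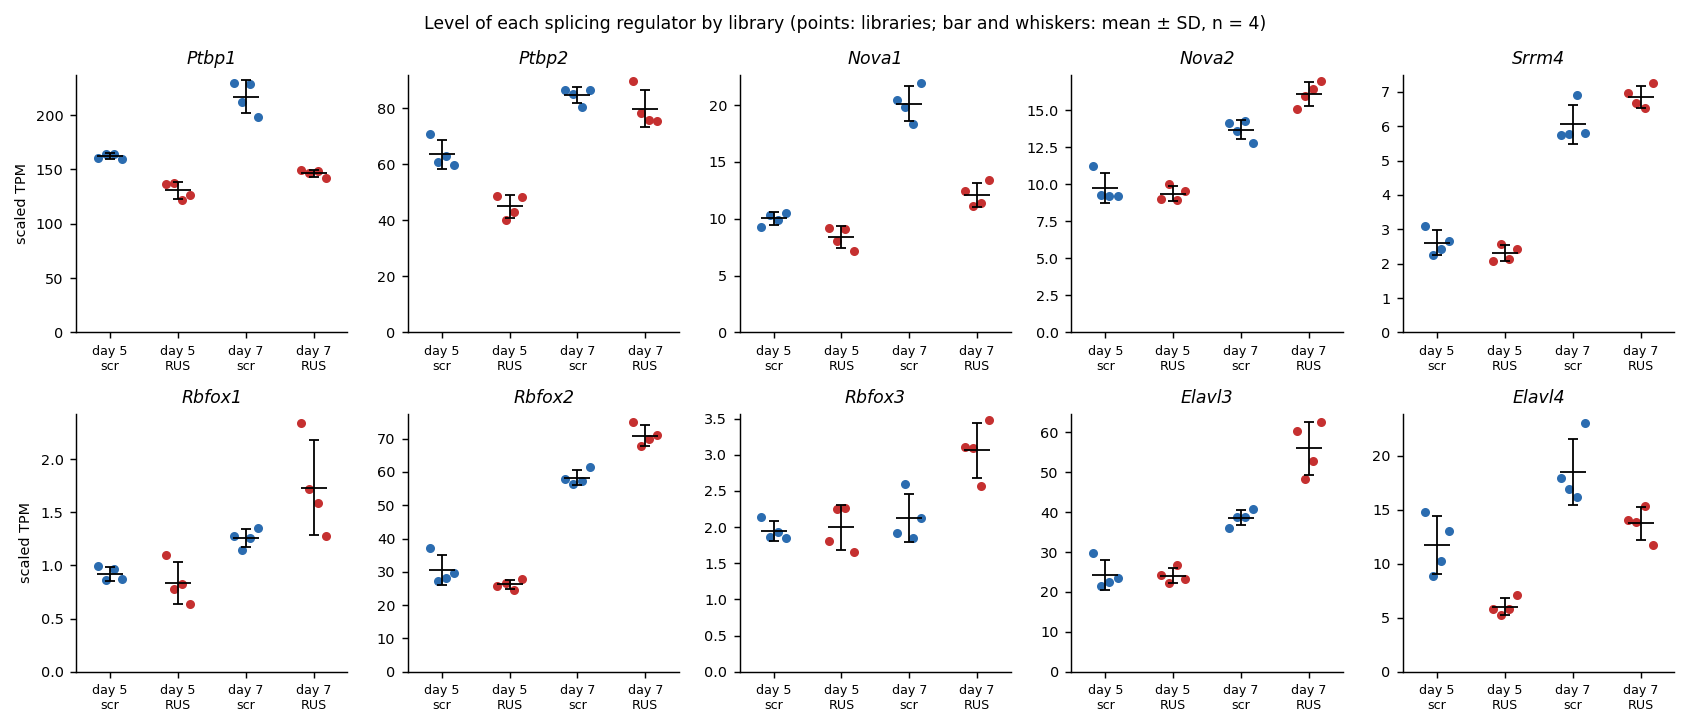
Scaled TPM (vertical axes, from 0) of the 10 genes in every library, with groups on the horizontal axes, blue for scr shRNA and red for RUS shRNA; bars and whiskers are the mean and SD of 4 libraries. Most genes stood higher on day 7, and on that day the Ptbp1 and Nova1 libraries with RUS shRNA lay below all libraries with scr shRNA while those of Elavl3 and Rbfox2 lay above them.

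On day 5, RUS shRNA lowered 3 of the 10 genes, Ptbp1, Ptbp2 and Elavl4, and raised none. Among all 22581 genes tested on that day, 17.9% were called lower and 14.8% higher. The 10 had a median log2 fold change of −0.19, against −0.061 over all genes tested, and it was −0.34 with TPM as deposited, −0.074 with quantile normalization and −0.11 with the 75th percentile. On day 7, 4 of the 10 were called higher (Nova2, Rbfox2, Rbfox3 and Elavl3) and 3 lower (Ptbp1, Nova1 and Elavl4), against 23.4% higher and 25.8% lower of the 24606 genes tested. The median of the 10 was then 0.22 and that of all genes −0.029. The comparisons of the days use separate libraries, and the differences between the days have their own test, given below.

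Among the libraries as a whole, the factors ranged from 0.845 to 1.10, and on day 5 those with RUS shRNA lay between 0.845 and 0.928 while those with scr shRNA lay between 0.943 and 1.02. With TPM as deposited the day 5 median over all genes tested moved from −0.061 to −0.205, so small differences on that day depend on this correction. Gm20754 itself was listed at 0.117 to 0.235 scaled TPM with scr shRNA and at 0 to 0.345 with RUS shRNA on day 5, and at 0.238 to 0.661 and 0 to 0.500 on day 7. The groups overlapped and the gene was not called on either day (−0.40, adjusted p = 0.519, and −1.28, adjusted p = 0.114), so its own knockdown could not be seen in these tables. The paper reports lower RUS levels with the RUS shRNA by quantitative PCR, which is a separate measurement.

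Neuron, neural stem cell, astrocyte, oligodendrocyte and microglia markers were all present in every group. Of all genes tested, 14.8% were called higher and 17.9% lower on day 5, and 23.4% and 25.8% on day 7. On day 5 these shares were 7.83% and 26.7% with TPM as deposited and 19.3% and 13.9% with the 75th percentile. With quantile normalization they were 14.7% and 14.8% on day 5 and 24.6% and 24.5% on day 7. The counts of markers called are to be read against these shares. The summed neuron markers were close between shRNAs (980 to 1070 scaled TPM with scr shRNA and 972 to 1023 with RUS shRNA on day 5, and 1179 to 1258 and 1082 to 1200 on day 7). Single genes of that list moved both ways, however. Of its 13 genes 4 were called higher and 3 lower on day 5, or 2 and 4 with TPM as deposited, and 6 and 4 on day 7. Neural stem cell markers summed to 12545 to 14694 and 17806 to 21303 on day 5 and to 6898 to 7154 and 7092 to 7748 on day 7, but these sums were mostly Vim and Fabp7 and the list itself was mixed. Of its 9 genes 3 were called higher and 3 lower on day 5 (median −0.11), or 2 and 5 with TPM as deposited (median −0.27), 2 and 4 with quantile normalization (median −0.21) and 3 and 2 with the 75th percentile (median −0.028). Vim stood at 0.55 (adjusted p = 0.00327), Nes at −0.87 (adjusted p = 3.46e-05) and Hes5 at −0.67 (adjusted p = 0.0357). By day 7, 2 were higher and 4 lower (median −0.034, but 0.013 with quantile normalization), with Nes at −1.19 (adjusted p = 1.71e-06) and Prom1 at −1.003 (adjusted p = 6.65e-07). Oligodendrocyte lineage markers summed to 247 to 329 and 165 to 254 on day 5, where the groups overlapped, and to 374 to 411 and 238 to 262 on day 7, with 4 and then 6 of 7 genes called lower and none higher (medians −0.62 and −0.69). Neuroblast and intermediate progenitor markers summed to 197 to 231 and 161 to 184 and then 210 to 235 and 219 to 256, with 4 of 8 genes lower on each day and 1 higher on day 7. Vascular and fibroblast markers, with up to 2 of 7 genes at 0 in a library, summed to 27.4 to 31.5 and 25.8 to 36.5 and then 14.2 to 15.6 and 29.8 to 33.9. Of these 7 genes 5 were tested, with 1 called higher on day 5, 2 on day 7 and none lower (medians 0.30 and 0.38). The number higher was 0 on day 5 with TPM as deposited and 3 on day 7 with quantile normalization. Astrocyte markers summed to 4484 to 4687 and 6016 to 6381 and then 2603 to 2681 and 3278 to 3422, sums that were mostly Gfap and Aldoc. That list was mixed as well, with 2 of 7 genes called higher and 1 lower on day 5 (median 0.027, but −0.13 with TPM as deposited and −0.12 with quantile normalization) and 3 higher and 1 lower on day 7 (median 0.065), and Slc1a2 was at −0.65 on day 5 (adjusted p = 0.00340) and S100b at −0.54 on day 7 (adjusted p = 3.14e-04). Microglia markers summed to 75.05 to 79.9 and 66.2 to 83.6 and then 180.2 to 192 and 76.3 to 98.2, where all 6 genes were called lower, or 5 with quantile normalization. In bulk RNA, fewer cells of a type and less RNA per cell cannot be told apart, and the part of these markers in the results below was not tested.

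Ptbp1 (chr10:79854427-79864771, plus strand), the repressor of neuronal exons, had the highest level of the 10 in each of the 16 libraries. On day 5 it stood at 160.5, 165, 164 and 159 scaled TPM in scr shRNA replicates 1 to 4 and at 136, 138, 122 and 126 with RUS shRNA. All 4 libraries with RUS shRNA lay below all with scr shRNA, a change of −0.31 (SE 0.053, adjusted p = 0.00192). The day 7 values were 229.6, 212, 229 and 199 with scr shRNA and 149, 147, 148 and 142 with RUS shRNA. The groups were again apart, by −0.55 (SE 0.051, adjusted p = 1.75e-05), or 0.684 times the control. With scr shRNA the level rose from day 5 to day 7 by 0.42 (SE 0.049, adjusted p = 3.87e-06). With RUS shRNA it rose by 0.17 (SE 0.049, adjusted p = 0.00783), a change that vanished when libraries were scaled to the 75th percentile (−0.0028). The order of the group means was day 5 RUS shRNA, day 7 RUS shRNA, day 5 scr shRNA and day 7 scr shRNA, and neighbouring groups did not share values. The gene Plppr3 overlaps it on the opposite strand at 19.0 to 44.9 scaled TPM over the groups, and the sources used here do not state whether reads were counted by strand.

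Ptbp2 (chr3:119718742-119784466, minus strand), the neuronal paralog, was lower with RUS shRNA on day 5 and was not called on day 7. On day 5 its 4 libraries with scr shRNA had 70.8, 60.7, 63.0 and 59.6 scaled TPM, and those with RUS shRNA had 48.7, 40.1, 42.9 and 48.4. The groups did not overlap, and the change was −0.50 (SE 0.080, adjusted p = 0.00148). On day 7 the values were 86.7, 85.2, 80.6 and 86.7 with scr shRNA and 89.7, 78.4, 75.9 and 75.6 with RUS shRNA. Replicate 1 with RUS shRNA was the highest of these 8 libraries and the other 3 were the lowest, and the change was not called (−0.07, 95% interval −0.20 to 0.050, adjusted p = 0.302). Without that library it was −0.13 (adjusted p = 0.0220). From day 5 to day 7 Ptbp2 rose by 0.42 with scr shRNA (SE 0.073, adjusted p = 1.88e-04) and by 0.83 with RUS shRNA (SE 0.073, adjusted p = 8.74e-08).

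The level of Ptbp1 over that of Ptbp2 was 2.56 ± 0.204 (SD, n = 4) with scr shRNA and 2.92 ± 0.357 with RUS shRNA on day 5, when the groups overlapped. On day 7 it was 2.57 ± 0.231 with scr shRNA and 1.84 ± 0.125 with RUS shRNA, and the highest library with RUS shRNA (1.96) lay below the lowest with scr shRNA (2.29). Ptbp3, the remaining paralog, which is best known from blood cells, was not called on either day (−0.18, adjusted p = 0.399, and −0.18, adjusted p = 0.0705).

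Nova1 (chr12:46694517-46818929, minus strand) and Nova2 (chr7:18925888-18965319, plus strand), paralogs with their own neuronal territories in the brain, moved apart under RUS shRNA. Nova1 stood at 9.31, 10.4, 9.93 and 10.5 scaled TPM with scr shRNA on day 5 and at 9.17, 8.04, 9.13 and 7.18 with RUS shRNA. The groups did not overlap, though the nearest libraries stood at 9.31 and 9.17, and the gene was not called (−0.26, SE 0.094, adjusted p = 0.0604). It was called lower with TPM as deposited (−0.42, adjusted p = 0.00414), with a filter at 1 TPM (−0.26, adjusted p = 0.0429) and with a single fit (−0.26, adjusted p = 0.0249). By day 7 the control libraries had 20.5, 19.8, 18.3 and 21.9, and those with RUS shRNA had 12.4, 11.1, 11.4 and 13.4. These groups were far apart, at −0.72 (SE 0.075, adjusted p = 3.68e-05), or 0.608 times the control, the largest called change of the 10 on that day. With scr shRNA it rose from day 5 by 1.00 (SE 0.086, adjusted p = 1.31e-07), and with RUS shRNA it rose by 0.53 (SE 0.086, adjusted p = 6.44e-05).

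Nova2 had 11.3, 9.28, 9.23 and 9.23 scaled TPM with scr shRNA on day 5 and 9.01, 10.02, 8.94 and 9.53 with RUS shRNA. The groups overlapped, replicate 1 with scr shRNA stood above the other 7 libraries, and the gene was not called (−0.05, 95% interval −0.24 to 0.14, adjusted p = 0.689). Its day 7 values were 14.1, 13.6, 14.3 and 12.8 with scr shRNA and 15.1, 15.9, 16.4 and 17.01 with RUS shRNA. All libraries with RUS shRNA were higher than all with scr shRNA (0.25, SE 0.058, adjusted p = 0.00576). Nova2 over Nova1 was 0.978 ± 0.155 and 1.13 ± 0.180 on day 5 with scr and RUS shRNA, groups that overlapped, and 0.685 ± 0.0799 and 1.34 ± 0.118 on day 7, when they did not. Nova2 was thus the lower of the pair in each scr shRNA library on day 7 and the higher in each RUS shRNA library.

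Srrm4 (chr5:116439275-116591817, minus strand), the microexon regulator, was a low gene that rose strongly with time and was called with neither day's knockdown. On day 5 it had 3.10, 2.25, 2.43 and 2.66 scaled TPM with scr shRNA and 2.07, 2.57, 2.14 and 2.41 with RUS shRNA. Day 7 brought 5.73, 5.77, 6.90 and 5.82 with scr shRNA and 6.98, 6.68, 6.52 and 7.25 with RUS shRNA. The groups overlapped on both days, on day 7 through scr shRNA replicate 3 alone (−0.17, adjusted p = 0.358, and 0.19, 95% interval 0.019 to 0.37, adjusted p = 0.0648). Without that library the day 7 change was 0.26 (adjusted p = 0.0134), and it was also called with quantile normalization (0.28, adjusted p = 0.0140) and with a filter at 1 TPM (0.19, adjusted p = 0.0471). From day 5 to day 7 Srrm4 rose by 1.19 with scr shRNA (SE 0.103, adjusted p = 1.32e-07) and by 1.54 with RUS shRNA (SE 0.103, adjusted p = 4.16e-09). Its relative Srrm3, which also acts on microexons, was not called on day 5 (0.14, adjusted p = 0.502) and rose under RUS shRNA on day 7, from 4.14 ± 0.414 to 6.59 ± 0.493 scaled TPM (0.67, SE 0.092, adjusted p = 2.18e-04).

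Of the Rbfox genes, Rbfox2 (chr15:77078990-77307004, minus strand), which is also expressed outside neurons, accounted for most of the RNA. It made up between 88.8% and 94.9% of the summed Rbfox TPM in each library. On day 5 it had 37.2, 27.1, 28.1 and 29.7 scaled TPM with scr shRNA and 25.8, 26.6, 24.5 and 27.8 with RUS shRNA, groups that overlapped, with replicate 1 of scr shRNA well above the rest (−0.21, 95% interval −0.43 to 0.010, adjusted p = 0.133). Values on day 7 were 57.9, 56.4, 57.2 and 61.6 with scr shRNA and 74.9, 67.6, 70.0 and 71.2 with RUS shRNA. The groups no longer met (0.30, SE 0.041, adjusted p = 2.32e-04). Its rise between the days was 0.94 with scr shRNA and 1.43 with RUS shRNA (SE 0.079 each, adjusted p = 8.95e-08 and 5.36e-10).

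Rbfox3 (chr11:118489762-118911597, minus strand) encodes the NeuN antigen of maturing neurons and was low throughout. It had 2.14, 1.86, 1.93 and 1.85 scaled TPM with scr shRNA and 1.81, 2.26, 2.27 and 1.65 with RUS shRNA on day 5. The groups overlapped fully (0.03, 95% interval −0.28 to 0.34, adjusted p = 0.895). On day 7 the gene had 1.92, 2.60, 1.85 and 2.13 with scr shRNA and 3.11, 3.09, 2.56 and 3.47 with RUS shRNA. The gene was called higher (0.53, SE 0.134, adjusted p = 0.00912) although the highest control, at 2.60, and the lowest knockdown library, at 2.56, met.

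Rbfox1 (chr16:5885355-7411526, plus strand), a splicing factor of mature neurons and of muscle, was the lowest of the 10. On day 5 it ranged from 0.859 to 0.991 scaled TPM with scr shRNA and from 0.636 to 1.10 with RUS shRNA. On day 7 it had 1.28, 1.15, 1.26 and 1.35 with scr shRNA and 2.34, 1.72, 1.59 and 1.27 with RUS shRNA. The knockdown libraries differed widely among themselves, and the change was not called (0.42, 95% interval 0.028 to 0.81, adjusted p = 0.0735). Without RUS shRNA replicate 4 it was 0.55 (adjusted p = 0.0190), and with quantile normalization 0.51 (adjusted p = 0.0377).

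Elavl3 (chr9:22015005-22052023, minus strand) and Elavl4 (chr4:110203722-110351909, minus strand), encoding HuC and HuD of young and maturing neurons, were on opposite sides of the control on day 7. Elavl3 had 29.9, 21.6, 22.5 and 23.5 scaled TPM with scr shRNA on day 5 and 24.2, 22.1, 26.8 and 23.3 with RUS shRNA, with no separation (−0.0038, 95% interval −0.24 to 0.23, adjusted p = 0.984). On day 7 it had 36.1, 38.7, 38.9 and 40.8 with scr shRNA and 60.2, 48.3, 52.8 and 62.5 with RUS shRNA. Each knockdown library lay above each control (0.54, SE 0.078, adjusted p = 3.19e-04), or 1.46 times the control.

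Elavl4 had the largest day 5 change of the 10. It stood at 14.7, 8.85, 10.3 and 13.1 scaled TPM with scr shRNA and at 5.80, 5.29, 5.82 and 7.13 with RUS shRNA. The groups were apart in spite of the wide spread of the controls (−0.93, SE 0.160, adjusted p = 0.00209), or 0.524 times the control. On day 7 it had 17.9, 16.9, 16.2 and 23.0 with scr shRNA and 14.01, 13.8, 15.4 and 11.7 with RUS shRNA. The lowest control, at 16.2, was above the highest knockdown library, at 15.4 (−0.41, SE 0.117, adjusted p = 0.0164).

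Elavl3 over Elavl4 took about the same value on both days within an shRNA. It was 2.11 ± 0.269 on day 5 and 2.12 ± 0.280 on day 7 with scr shRNA, and 4.06 ± 0.558 and 4.14 ± 0.895 with RUS shRNA. Every knockdown library, from 3.28 upward, lay above every control, up to 2.44. Elavl2, encoding HuB, went with Elavl4 on day 5 (−0.95, SE 0.209, adjusted p = 0.00760) and was not called on day 7 (−0.20, adjusted p = 0.0881). Elavl1, encoding the ubiquitous HuR, was slightly lower on both days (−0.27, adjusted p = 0.00522, and −0.17, adjusted p = 0.0195). The summed neuronal members Elavl2, Elavl3 and Elavl4 over Elavl1 gave 0.997 ± 0.168 with scr shRNA and 0.937 ± 0.0766 with RUS shRNA on day 5, and 1.35 ± 0.0487 and 1.78 ± 0.151 on day 7, where the groups did not overlap.

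**Figure D2:**
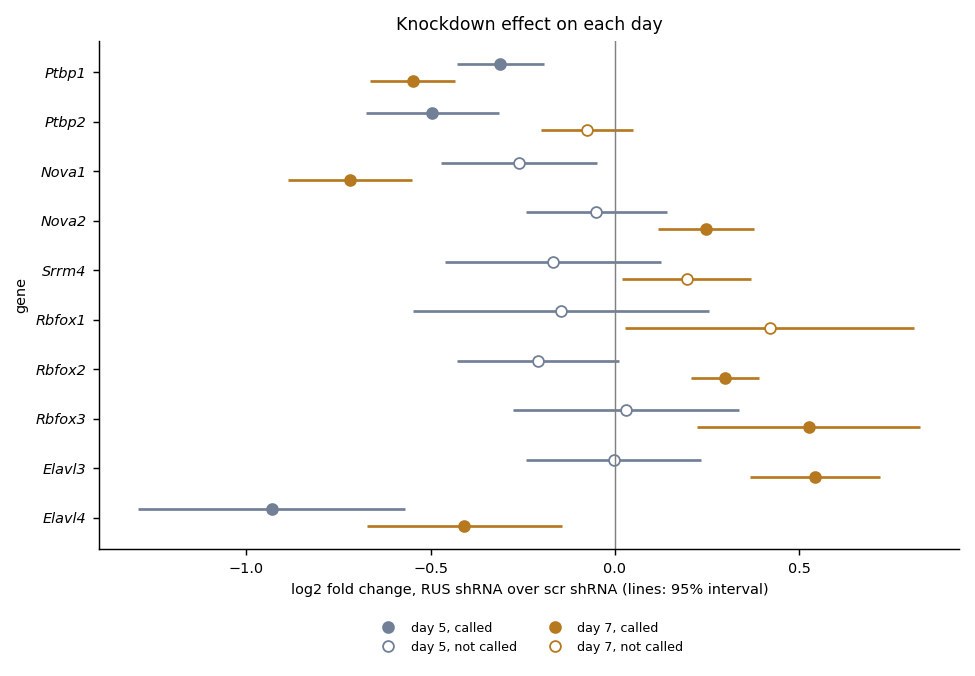
Log2 fold change of RUS shRNA over scr shRNA (horizontal axis) for each gene (vertical axis) on day 5 in grey and day 7 in brown, 4 libraries a group; lines are 95% intervals and filled points are called. On day 5 the 3 called genes lie left of 0, and on day 7 there are 3 called genes to the left and 4 to the right.

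**Figure D3:**
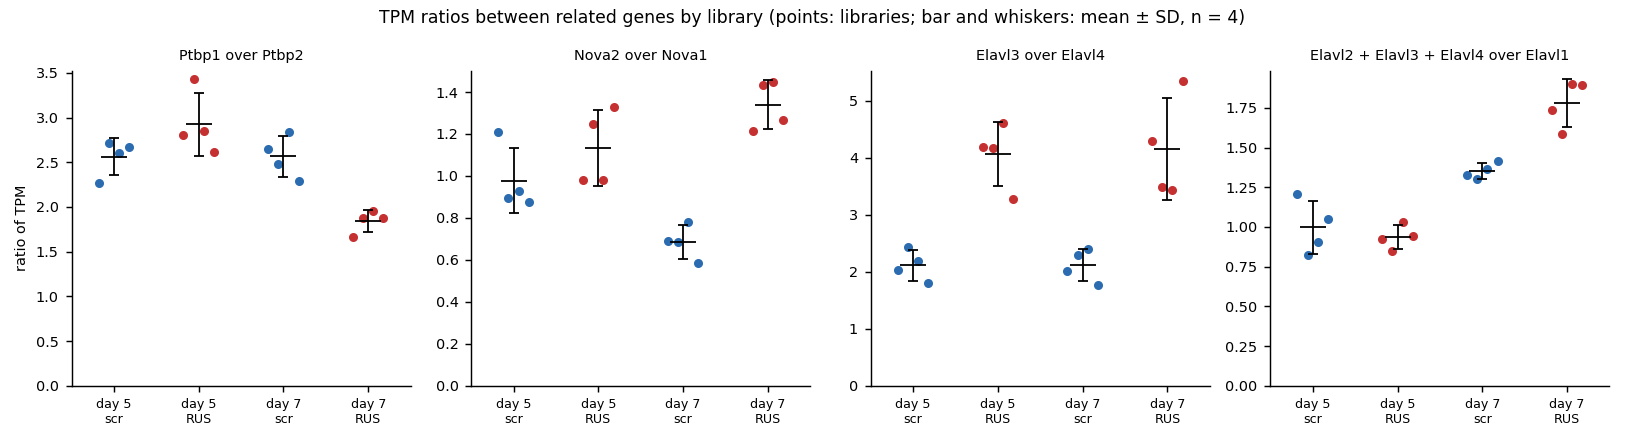
Ratios of TPM (vertical axes, from 0) between related genes in each library by group, with the mean and SD of 4 libraries. Elavl3 over Elavl4 is about 2.1 with scr shRNA and about 4.1 with RUS shRNA on both days, whereas the Ptbp and Nova ratios separate the shRNAs on day 7 alone.

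On day 5, scr shRNA replicate 1 was the highest of the 4 controls for 8 of the genes, all except Ptbp1 and Nova1. Without it the day 5 calls of Ptbp1 (−0.32, adjusted p = 0.00551), Ptbp2 (−0.45, adjusted p = 0.00430) and Elavl4 (−0.82, adjusted p = 0.00517) held, and the values of Nova2 (0.017) and Elavl3 (0.095), which were not called with it either, changed sign. The day 5 count of genes called lower was 3 with each of the 8 libraries left out in turn. It was 5 with TPM as deposited and 5 with a single fit over all 16 libraries, which in both cases added Nova1 and Rbfox2. The share of all genes called lower also rose, to 26.7% and 21.2%. A filter at 1 TPM added Nova1 alone, with 24.2% of all genes called lower.

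The change between the days shows how these genes behaved as the cells were differentiating. With scr shRNA, 8 of the 10 genes rose from day 5 to day 7 and none fell. Of the 23789 genes tested in both tables, 26.9% rose and 21.6% fell. The log2 fold changes ran from 0.42 for Ptbp2 and Ptbp1 to 1.19 for Srrm4 among the called genes, with a median over the 10 of 0.58 against 0.067 for all genes. Elavl3 rose by 0.67 (SE 0.0996, adjusted p = 3.94e-05), Elavl4 by 0.67 (SE 0.151, adjusted p = 0.00167) and Nova2 by 0.49 (SE 0.070, adjusted p = 2.71e-05). Rbfox1 (0.41, adjusted p = 0.0637) and Rbfox3 (0.11, adjusted p = 0.518) were not called. The call of Rbfox1 turned on single libraries of the other arm, which set the shared estimate of spread, with an adjusted p of 0.0459, 0.0489, 0.0375 and 0.0445 without day 5 RUS shRNA replicate 1 or 4 or day 7 RUS shRNA replicate 1 or 4.

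With RUS shRNA all 10 rose, Ptbp1 not with the 75th percentile scaling, against 35% of all genes that rose and 25.8% that fell. Their median log2 fold change was 0.89 and that of all genes 0.13. The steepest were Srrm4 (1.54), Rbfox2 (1.43), Elavl3 (1.21, SE 0.0996, adjusted p = 4.10e-08) and Elavl4 (1.18, SE 0.151, adjusted p = 5.11e-06). Nova2 rose by 0.78 (SE 0.070, adjusted p = 1.11e-07), Rbfox1 by 0.96 (SE 0.173, adjusted p = 1.59e-04) and Rbfox3 by 0.60 (SE 0.133, adjusted p = 0.00108). Ptbp1, at 0.17, had the smallest rise. Day and differentiation medium changed together, so the time since seeding and the medium cannot be told apart.

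**Figure D4:**
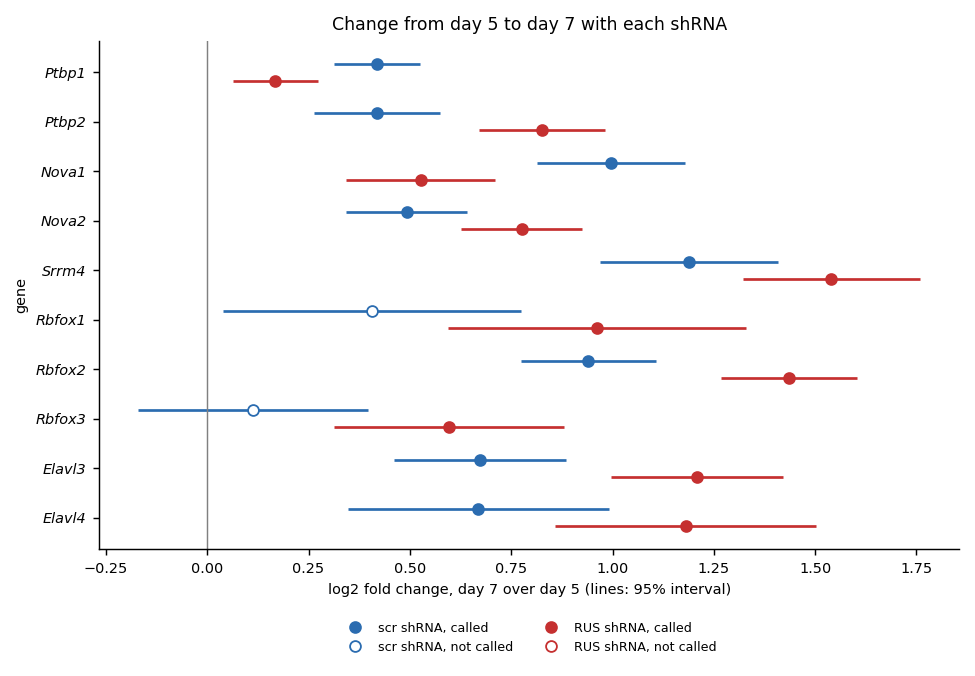
Log2 fold change of day 7 over day 5 (horizontal axis) for each gene (vertical axis), blue with scr shRNA and red with RUS shRNA, 4 libraries a group; lines are 95% intervals and filled points are called. The red point lies to the right of the blue one for 8 genes and to the left for Ptbp1 and Nova1.

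Whether the knockdown acted differently on day 5 and on day 7 was tested as an interaction over the 16 libraries. It was called positive for Ptbp2 (0.41, SE 0.103, adjusted p = 0.00753), Rbfox2 (0.49, SE 0.111, adjusted p = 0.00367), Elavl3 (0.53, SE 0.141, adjusted p = 0.00978) and Nova2 (0.28, SE 0.099, adjusted p = 0.0408), and negative for Ptbp1 (−0.25, SE 0.070, adjusted p = 0.0136) and Nova1 (−0.47, SE 0.122, adjusted p = 0.00886). These 4 and 2 of the 10 stand against 15.2% and 14.6% of all genes. It was not called for Elavl4 (0.51, 95% interval 0.057 to 0.97, adjusted p = 0.0852), Srrm4 (0.35, adjusted p = 0.0832), Rbfox1 (0.55, adjusted p = 0.102) or Rbfox3 (0.48, adjusted p = 0.0660).

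Not all of these calls were firm. With TPM as deposited the split was 8 positive and 1 negative, against 24% and 8.63% of all genes, and Ptbp1 (−0.077, adjusted p = 0.438) was no longer called. The Nova2 call was the least firm, being lost without any of 9 single libraries, namely day 5 scr shRNA replicate 1, day 5 RUS shRNA replicates 1 and 3, day 7 scr shRNA replicates 1, 2 and 4 and day 7 RUS shRNA replicates 2, 3 and 4 (0.22 to 0.30, adjusted p from 0.0513 to 0.0816). The genes not called were called without some single libraries, which were day 5 RUS shRNA replicate 4, day 5 scr shRNA replicate 2 and day 7 scr shRNA replicate 4 for Elavl4 (0.60, 0.64 and 0.62), day 5 scr shRNA replicate 2 and day 7 scr shRNA replicate 3 for Srrm4 (0.42 and 0.41), day 5 RUS shRNA replicate 1 and day 7 RUS shRNA replicate 4 for Rbfox1 (0.68 in both cases), and day 5 RUS shRNA replicate 3, day 7 RUS shRNA replicate 3 and day 7 scr shRNA replicate 2 for Rbfox3 (0.54, 0.56 and 0.58).

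Among known partners of these genes, Rest, the repressor of neuronal genes in non-neuronal cells whose own mRNA is a target of Srrm4, was higher with RUS shRNA. Its level went from 5.81 ± 0.257 to 7.30 ± 1.05 scaled TPM on day 5 (0.32, SE 0.102, adjusted p = 0.0393) and from 7.87 ± 0.344 to 13.1 ± 0.379 on day 7 (0.75, SE 0.053, adjusted p = 3.66e-06). The day 5 call was lost with TPM as deposited (0.16, adjusted p = 0.369). The host transcript Mir124a-1hg of miR-124, the microRNA that targets Ptbp1, was not called on day 5 (−0.28, adjusted p = 0.118, but called lower at −0.44 with TPM as deposited, adjusted p = 0.0459) and was higher on day 7 (0.46, SE 0.075, adjusted p = 6.81e-04). The other host transcript measured, Mir124-2hg, was not called on either day (0.29, adjusted p = 0.135, and 0.11, adjusted p = 0.377), and Mir9-3hg, a host of miR-9, was lower on both (−0.55, adjusted p = 5.65e-05, and −0.49, adjusted p = 1.09e-04). The last 3 partners hold exons known to be regulated by members. Dlg4, the PSD-95 gene, whose mRNA is unstable when Ptbp1 and Ptbp2 keep an exon out, was not called on day 5 (−0.02, adjusted p = 0.892) and was higher on day 7 (0.34, SE 0.069, adjusted p = 0.00256). Gabbr1, a GABA receptor gene with a Ptbp1-repressed exon, was higher on both (0.22, adjusted p = 0.0191, and 0.68, adjusted p = 9.02e-06), the first value being 0.062 with TPM as deposited (adjusted p = 0.552) and 0.14 with quantile normalization (adjusted p = 0.113). Flna, encoding filamin A, was higher on day 7 (0.35, SE 0.047, adjusted p = 1.82e-04). In all, 2 of these 7 partners were called higher and 1 lower on day 5, against 14.8% and 17.9% of all genes. With TPM as deposited the counts were 0 and 2, against 7.83% and 26.7% of all genes. With quantile normalization they were 1 and 1, against 14.7% and 14.8%. On day 7, 5 were higher and 1 lower, against 23.4% and 25.8% of all genes.

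The wider splicing machinery was counted by fixed lists, to be read against the 14.8% of all genes called higher and 17.9% called lower on day 5. These shares were 7.83% and 26.7% with TPM as deposited and 19.3% and 13.9% with the 75th percentile, and counts under those scalings are to be read against them. On day 5, SR proteins, which mostly promote exon use, were called lower for 9 of 13 and higher for none (median −0.39), with Srsf1 at −0.52 (adjusted p = 1.36e-04) and Srsf7 at −0.44 (adjusted p = 8.45e-04). Of 22 hnRNP proteins, the family that includes the Ptbp proteins in the wide sense, 11 were lower and 1 higher (median −0.21), or 16 and 0 with TPM as deposited (median −0.37) and 10 and 1 with the 75th percentile (median −0.13), led by Hnrnpab (−1.24, adjusted p = 1.06e-05) and Hnrnpf (−0.83, adjusted p = 1.69e-05). Of 31 core spliceosome genes 11 were lower and none higher (median −0.14), and the number lower ranged from 5 to 20 with the scaling, lowest with the 75th percentile and highest with TPM as deposited. Of 25 other tissue-restricted splicing factors 23 were tested, 8 of which were lower and 2 higher (median −0.18), or 12 and 1 with TPM as deposited (median −0.34), and the median was −0.080 with quantile normalization and −0.102 with the 75th percentile. Rbm24 (−0.77, adjusted p = 0.00236) and Celf1 (−0.60, adjusted p = 8.98e-04) were among the lower.

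On day 7, when 23.4% of all genes were called higher and 25.8% lower, 10 of the 24 tissue-restricted factors tested were higher and 6 lower (median 0.12), with Celf5 at 1.01 (adjusted p = 5.56e-05), Rbm38 at 0.99 (adjusted p = 1.54e-04) and Rbm24 at −0.74 (adjusted p = 3.82e-05). The core spliceosome had 19 of 31 lower and 3 higher (median −0.18), with Snrpa1 at −0.80 (adjusted p = 4.96e-07) and Snrpd1 at −0.75 (adjusted p = 4.28e-06). SR proteins had 6 lower and 2 higher (median −0.17), and hnRNP proteins 10 lower and 4 higher (median −0.073), again with Hnrnpab (−1.13, adjusted p = 4.60e-08) and Hnrnpf (−0.997, adjusted p = 2.29e-07) at the low end. The neuron markers were called higher for 6 of 13 and lower for 4 on that day (median 0.14), and for 4 and 3 on day 5 (median −0.074, but 0.037 with quantile normalization and 0.0059 with the 75th percentile, and −0.23 with 2 higher and 4 lower with TPM as deposited).

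**Figure D5:**
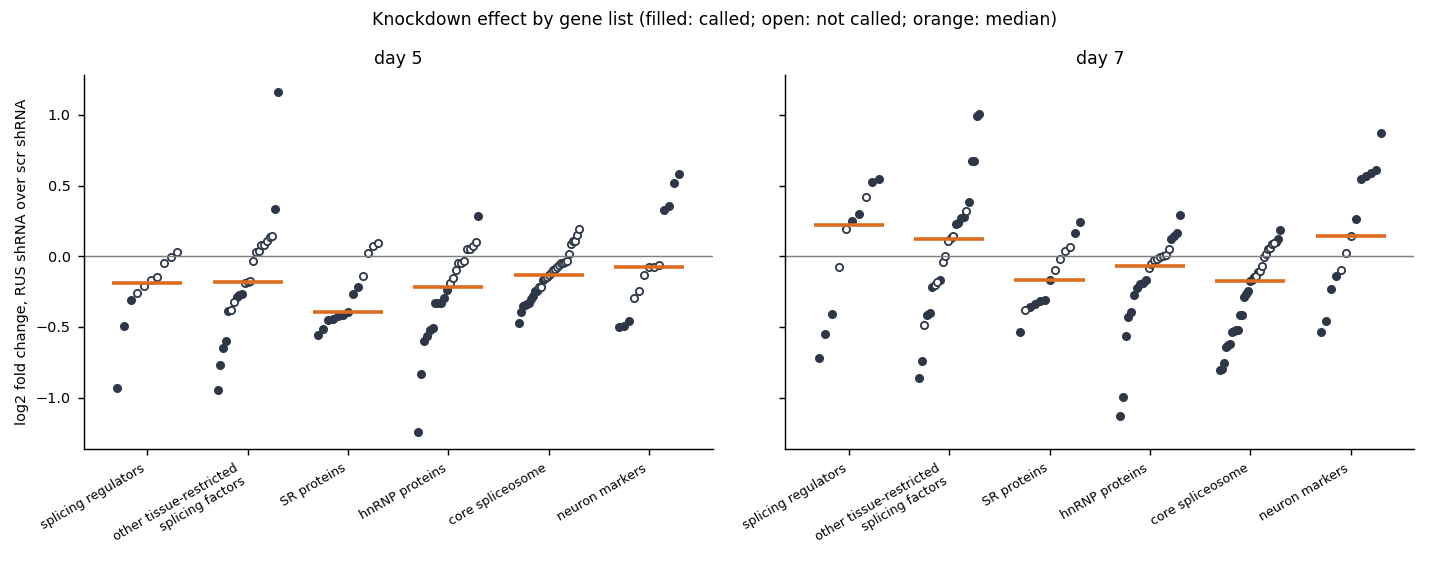
Log2 fold change of RUS shRNA over scr shRNA (vertical axis) for the genes of 6 lists (horizontal axis) on day 5 and day 7; filled points are called, open points are not, and orange bars are list medians. The medians of all lists shown lie below 0 on day 5, that of the neuron markers not with quantile or 75th percentile scaling, and on day 7 those of the 10 splicing regulators, the other tissue-restricted factors and the neuron markers lie above it.

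Over the 16 libraries, the genes whose log2 level followed each member most closely were found among the 15899 genes that averaged 1 TPM or more. The points share 4 groups, so such values mostly express the group means, and they are given as a description. Matn3 (Pearson r = 0.985) and Tmem185a (0.977) were nearest to Ptbp1, and Fubp1 (0.986) and Tgoln1 (0.985) to Ptbp2. Megf11 (0.9748) and Pcsk2 (0.972) were nearest to Nova1, and Larp1 (0.986) and Runx1t1 (0.983) to Nova2. For Srrm4 they were 5930430L01Rik (0.991) and Mtss1 (0.990), for Rbfox2 Asxl3 and 4931428F04Rik (0.995 each), and for Rbfox1 Zscan22 (0.941) and Gm44524 (0.936). Gm28872 and Psd (0.908 each) were nearest to Rbfox3, Kif5a (0.985) and Kdm5b (0.983) to Elavl3, and Atp2b1 (0.9747) and Eps15 (0.968) to Elavl4. No other of the 10 was among the nearest 2 of any member, and Rbfox2 was rank 4 for Srrm4 (0.988).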

How the data were processed

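Groups of the 16 libraries follow the labels. Per the methods, polyA RNA was sequenced on a NextSeq 500, and the authors aligned reads with STAR to mm10 with the GRCm38.99 transcripts, quantified them with RSEM and deposited TPM per library, a unit relative to all transcripts of a library (sums of 999999.3 to 1000000.7 and 25615 to 29126 genes above 0). The authors also deposited a mean signal of normalized counts per gene, used here as a guide to coverage, and their own DESeq2 fold changes and p-values, which were not used. No counts per library were given, so depth is unknown and no count test was run.

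Library factors were median ratios over genes at 1 TPM or more in all libraries of a fit, and 0.1 was added to the scaled TPM before log2. Genes averaging 0.1 TPM or more were tested two-sided with limma 3.58.1 in R 4.3.3 (lmFit, trended eBayes), and p-values were adjusted by Benjamini-Hochberg over all genes, with a threshold of 0.05. Each day had its own fit for the knockdown, and 1 fit over 16 libraries served the days and the interaction. Printed levels use factors over all 16 libraries. On day 5, 3 lines with no gene name, holding at most 0.386% of a library's TPM, were left out, and 106 lines whose symbols differed between the tables or were missing were left out of the joint fit. No libraries were identical, and same-numbered libraries did not deviate together.

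The members and lists were chosen with earlier results of these data known. Beside the members, genes were named by rule: paralogs, Gm20754, at most 4 of each list by size of change, and the 2 genes most like each member. Alternatives were an added value of 1 or 0.01, a filter at 1 TPM or none, TPM as deposited, quantile normalization, the 75th percentile, no trend, a replicate block, a single fit and leaving out each library. The scalings were applied to the lists and partner genes after their values were seen. Positions came from GENCODE vM21 and promoters from RefSeq, both GRCm38, by symbol. Figures were drawn with Python 3.11.15 and matplotlib 3.10.9.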

Additional observations from a re-analysis of the deposited data

Results flagged for a closer look

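The effect of the knockdown differed between day 5 and day 7 for 6 of the 10 genes by the interaction test, against 15.2% of all genes called positive and 14.6% negative. The Nova2 call was lost with no filter, quantile normalization or the 75th percentile and when any 1 of 9 libraries was left out, and the Ptbp1 call was lost with TPM as deposited and with quantile normalization. The difference on the log2 scale was −0.25 for Ptbp1, 0.41 for Ptbp2, −0.47 for Nova1, 0.28 for Nova2, 0.49 for Rbfox2 and 0.53 for Elavl3. For Ptbp1 and Nova1 the lower level with RUS shRNA was further from the control on day 7, for Ptbp2 it was nearer to it, and Nova2, Rbfox2 and Elavl3 were called higher only on day 7, where the interaction test is the test of that difference.

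In 2 of the 40 sets of 4 libraries examined, 1 library stood far from the other 3 by Dixon's criterion, and about 1 in 20 sets would do so by chance. These were Nova2 in day 5 scr shRNA replicate 1, at 11.3 scaled TPM, and Srrm4 in day 7 scr shRNA replicate 3, at 6.90 scaled TPM.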

How the results depend on the processing

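Of 469 values of single genes under alternatives other than leaving out a library, 440 kept their direction and their side of the threshold. Day 5 calls of Ptbp1 (−0.47 to −0.23), Ptbp2 (−0.65 to −0.42) and Elavl4 (−1.09 to −0.81) held under all of these, as did the day 7 calls of Ptbp1 (−0.56 to −0.51), Nova1 (−0.73 to −0.68), Nova2, Rbfox2, Rbfox3 and Elavl3. TPM as deposited gave 5 genes lower on day 5 instead of 3, with 26.7% of all genes lower. For the interaction it gave 8 higher and 1 lower instead of 4 and 2, with 24% and 8.63% of all genes. Quantile normalization gave 1 lower for the interaction, with 14.1% of all genes lower. It gave 6 higher on day 7 instead of 4, with Srrm4 and Rbfox1 added and 24.6% of all genes higher. A single fit gave 5 lower on day 5, with 21.2% of all genes lower. The interaction of Ptbp1 was −0.077 with TPM as deposited and −0.14 with quantile normalization, and that of Nova2 was 0.28 with no filter (adjusted p = 0.0561), 0.19 with quantile normalization and 0.20 with the 75th percentile, none of them called. The cause of these shifts was not tested.

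Some directions reversed. On day 5 they were those of Rbfox3 with TPM as deposited (−0.12), Nova2 (0.064), Elavl3 (0.010) and Rbfox1 (0.029) with quantile normalization, and Nova2 (0.029) and Elavl3 (0.076) with the 75th percentile. Rbfox3 between the days with scr shRNA was −0.12 with quantile normalization, and Ptbp1 between the days with RUS shRNA, which was called higher, was −0.0028 with the 75th percentile. Leaving out single libraries, the day 5 values ran from −0.058 to 0.095 for Elavl3, from −0.082 to 0.017 for Nova2 and from −0.031 to 0.11 for Rbfox3, and no count over the 10 genes moved by more than 1.5 times.

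Over all genes the balance of calls followed the scaling. On day 5, 3349 were higher and 4034 lower, against 1768 and 6037 with TPM as deposited and 4359 and 3143 with the 75th percentile. For the interaction the numbers were 3626 and 3464, against 5700 and 2053, and 2665 and 4338. Between the days they were 6394 and 5133 with scr shRNA, against 8573 and 3434 with TPM as deposited and 5373 and 6244 with the 75th percentile, and 8317 and 6135 with RUS shRNA, against 11801 and 3545, and 6618 and 7767 with the 75th percentile.

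Replicate numbers are shared between the groups, but libraries of the same number did not deviate together (r across genes of −0.105 to 0.033 within a day and −0.081 to 0.087 between the days), so the numbers were not taken to pair them. With the replicate number as a block the day 7 count of genes called lower was 2 instead of 3, with 24% of all genes lower. Elavl4 then had an adjusted p of 0.0576. The scr shRNA count of genes rising with time was 9 instead of 8, with 26.3% of all genes rising, and the interaction of Nova2 was not called (adjusted p = 0.0725). Depth is unknown, and the low genes Rbfox1 (SE 0.173) and Rbfox3 (SE 0.134) had the widest day 7 intervals of the 10.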
